A study of Mus musculus with 8 samples.

Results

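The genes described here are 5 interferon-induced genes of the mouse uterus, Ifitm2, Ifitm3, Ifi27, Bst2 and Isg15, chosen by name. The deposited tables list 5828 genes in all, and 4 of the 5 genes are among them, each in all 4 tables. Isg15 is in none of the 4 tables used here and has no value below. The uteri were profiled by Visium, in which a frozen section lies on an array of barcoded spots that capture messenger RNA, so that each unique molecular identifier (UMI, 1 captured transcript molecule) keeps its position. One spot covers a patch of tissue and may include several cells.

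Uteri came from 4 Ezh2cKO females (KO), genotype EZ fl/fl; Prcre/+, and 4 wild-type females (WT), genotype EZ fl/fl, on a mixed C57BL/6 and 129SvEv background. Both groups thus carry the floxed Ezh2 alleles, and KO alone carries the Cre, which the progesterone receptor gene drives and which therefore acts in the cells that express that receptor. One female of each genotype was taken from each of 4 litters. All were ovariectomized at postnatal day 71 ± 4, and their uteri were taken at day 112 ± 11. Ezh2 encodes the enzyme of Polycomb repressive complex 2 that writes the repressive mark H3K27me3. The authors named spots epithelium or stroma and pooled the animals of a genotype, which gives the groups KO epithelium, WT epithelium, KO stroma and WT stroma, with 1 value per gene and group. There is therefore no spread between animals, and intervals below cover counting error only.

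Interferons bind cell surface receptors whose Janus kinases (Jak1, Jak2, Tyk2) activate STAT proteins. Complexes of these proteins bind the interferon-stimulated response element (ISRE) in the promoters of antiviral genes. The uterine epithelium is known as a source of interferon epsilon, a type I interferon that it makes without infection and under estrogen control. Ifitm2 and Ifitm3 encode small membrane proteins that hinder the fusion of viruses with endosomes, Bst2 encodes tetherin, which holds budding viruses at the cell surface, Ifi27 encodes a small hydrophobic protein of mitochondria and the nuclear envelope, and Isg15 encodes a ubiquitin-like modifier.

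The promoters are shown first, since the ISRE is the element that interferon-induced genes are known for. Of the 5 genes, 4 have an entry in the RefSeq promoter table (GRCm38.p6), which runs from 250 bases before to 50 bases after each start. Ifi27 has none there. Below are 60 bases of each, 5′ to 3′ on the gene's strand, with matches to the ISRE core (GAAA, any 2 bases, GAAA) in capitals, where overlapping matches run together.
Ifitm2: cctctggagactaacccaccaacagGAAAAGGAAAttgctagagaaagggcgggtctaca
Ifitm3: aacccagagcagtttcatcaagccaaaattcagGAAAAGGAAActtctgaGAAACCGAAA
Bst2: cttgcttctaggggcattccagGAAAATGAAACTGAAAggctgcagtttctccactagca
Isg15: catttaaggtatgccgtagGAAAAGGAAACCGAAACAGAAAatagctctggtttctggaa

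All 4 genes lie on the minus strand. The stretches are chr7:140955973-140956032 for Ifitm2, chr7:141010716-141010775 for Ifitm3, chr8:71537565-71537624 for Bst2 and chr4:156200856-156200915 for Isg15. Ifitm2 has 1 match, which begins at position -46 from the RefSeq start, and Ifitm3 has 2, at positions 3 and 20, just past its RefSeq start. Bst2 has 2 overlapping matches at -130 and -124, and Isg15 has 3 overlapping ones at -78, -72 and -66. Searched on both strands, the core is in 3.44% of the 32851 promoters of the table and in 35.5% of the 76 promoters of interferon-induced effector genes of a wider list. Counted per gene, it is in a promoter of 3.99% of 27025 genes, of 25 of 60 matched effector genes and of 5 of the 25 effectors that a deposited table lists. The Ifitm2, Ifitm3 and Isg15 stretches share the letters GAAAAGGAAA, and Ifitm3 and Isg15 also share GAAACCGAAA. The STAT core (TTC, any 3 bases, GAA), searched the same way, is in 8.30% of promoters and in those of Ifitm3 and Bst2. A match describes the letters and is no evidence of binding.

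In GENCODE on GRCm38, Ifitm2 (ENSMUSG00000060591) spans chr7:140954837-140955987 and Ifitm3 (ENSMUSG00000025492) chr7:141009586-141010770, both with 2 exons on the minus strand. Ifi27 (ENSMUSG00000064215) spans chr12:103434211-103440239 on the plus strand with up to 7 exons, and Bst2 (ENSMUSG00000046718) chr8:71534255-71537456 with up to 5. Isg15 (ENSMUSG00000035692) spans chr4:156199424-156200818. All are protein-coding genes. Ifitm2 and Ifitm3 are close relatives, so reads could be split between them. Of the 251 words of 50 bases in the last 300 bases of the Ifitm2 transcript, 0 also occur in an Ifitm3 transcript, and none did for Ifitm3 against Ifitm1 or for Ifi27 against its neighbour Ifi27l2a. Over the whole transcript, 20 of 606 words of Ifitm2 occur in Ifitm3 and 15 of 629 words of Ifitm3 in Ifitm1, so reads from those stretches are uncertain. Gm45717, which is in none of the tables, overlaps Ifitm2 on the same strand, and reads within that overlap cannot be told apart here.

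Markers followed the names of the spots, those of epithelium more fully than those of stroma. In the authors' deposited tables all 22 listed epithelium markers were called higher (adjusted p-value under 0.05) in KO epithelium than in KO stroma. In WT all 17 listed ones were called higher in epithelium than in stroma. Of all genes, 5.43% were called higher in epithelium in KO and 13.1% in WT. However, 11 of these markers in KO and 14 in WT were listed through their epithelium average alone, so they had to be higher there. Only 11 in KO and 3 in WT had an average above 1 in both compartments. The summed average in epithelium was 3.12 times that in stroma in KO and 7.81 times that in WT. Secreted Wfdc2 had a level of 1367 UMIs in the KO epithelium pool and 1566 in the WT one, and of 346 in the KO stroma pool and 157 in the WT one, once each pool was scaled to the depth of WT stroma (called equal depth below). Of 25 stroma markers listed in KO, 24 were lower in epithelium and 7 were called so, where 9.88% of all genes were called in either direction. Of 23 listed in WT, 21 were lower and 12 were called so, where 15.7% of all genes were called lower. Listed through stroma alone were 2 of them in KO and 4 in WT. The matrix proteoglycan gene Dcn had 1504 and 1175 in KO and WT epithelium, and 3774 and 5135 in KO and WT stroma. Msx1, Cxcl12, Flna, Acta2 and Ly6c1, also among the highest markers of their lists, likewise stood higher in the compartment of their list, with endothelium and muscle counted to stroma. Sox17, listed for endothelium, instead had 216 and 261 in KO and WT epithelium, and 96.9 and 90.0 in KO and WT stroma. Pools held 416747 to 1552958 UMIs over the genes listed for them, and relative to WT stroma the depth was 2.75 in KO epithelium, 2.54 in WT epithelium and 2.01 in KO stroma. In pooled spots, fewer cells of a type and less RNA per cell cannot be told apart.

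Bst2 was the member that set 1 pool apart from the rest. The KO and WT epithelium pools held 296 and 141 UMIs of it, and the KO and WT stroma pools 189 and 98. At equal depth the level was 107 (95% exact Poisson interval 95.6 to 120) in KO epithelium against 55.5 (46.7 to 65.4) in WT epithelium. In stroma it was 93.9 (81.0 to 108) in KO against 98.0 (79.6 to 119) in WT. WT epithelium was low, and the other 3 pools overlapped in their intervals.

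Ifitm3 stood highest in epithelium. The KO and WT epithelium pools held 3813 and 3219 UMIs of it, and the KO and WT stroma pools 1536 and 566. At equal depth KO epithelium stood at 1384 (1341 to 1429), WT epithelium at 1266 (1223 to 1311), KO stroma at 763 (726 to 803) and WT stroma at 566 (520 to 615). From high to low the pools came in that order, with no overlap of neighbouring intervals.

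Ifitm2, also on chromosome 7, was level across the uterus. The KO and WT epithelium pools held 999 and 893 UMIs of it, and the KO and WT stroma pools 723 and 388. At equal depth KO epithelium stood at 363 (340 to 386), WT epithelium at 351 (329 to 375), KO stroma at 359 (334 to 387) and WT stroma at 388 (350 to 429). From high to low the order was WT stroma, KO epithelium, KO stroma and WT epithelium, and all 4 intervals overlapped.

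Ifi27 varied little more. The KO and WT epithelium pools held 313 and 250 UMIs of it, and the KO and WT stroma pools 255 and 114. At equal depth KO epithelium stood at 114 (101 to 127), WT epithelium at 98.3 (86.5 to 111), KO stroma at 127 (112 to 143) and WT stroma at 114 (94.0 to 137). Its highest pool, KO stroma, and its lowest, WT epithelium, were the one pair whose intervals did not meet.

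**Figure D1:**
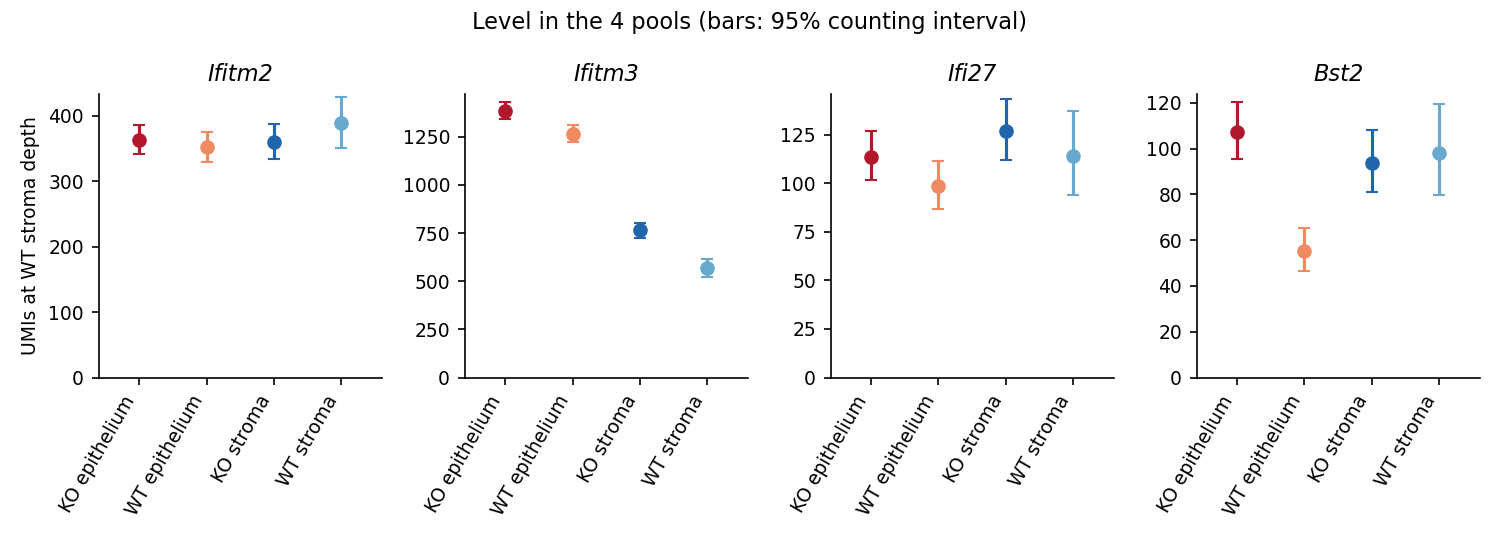
Level of each listed gene in the 4 pools, as UMIs scaled to the depth of the WT stroma pool, with 95% exact Poisson intervals that cover counting error only. Bst2 is low in WT epithelium alone (55.5 against 93.9 to 107 elsewhere), Ifitm3 is high in both epithelium pools (1384 and 1266 against 763 and 566), and Ifitm2 is level.

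The first comparison asked which of these transcripts differ in epithelium when Ezh2 is deleted. None of the 4 listed members was called, where 0.12% of the 5811 genes of that table were. The deposited averages were 4.80 in KO epithelium and 2.48 in WT epithelium for Bst2, 61.8 and 56.6 for Ifitm3, 16.2 and 15.7 for Ifitm2, and 5.08 and 4.39 for Ifi27. All 4 were higher in KO, where 35.2% of all genes were, and the median log2 ratio over all 5811 was -0.10.

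Bst2 had the largest ratio of the 4 members, 1.94 (95% counting interval 1.58 to 2.38), for which the authors' deposited table gives an adjusted p of 0.461. Of the 5811 genes, 52 had a higher KO over WT ratio, or 0.895%, and of the 4899 genes with an average above 1 in both groups, 20 did. The ratio was 1.16 (0.975 to 1.37) for Ifi27, 1.09 (1.04 to 1.15) for Ifitm3 and 1.03 (0.942 to 1.13) for Ifitm2, and the authors' deposited table gives each an adjusted p of 1. The interval stood above 1 for Bst2 and Ifitm3, as it did for 7.62% of all genes.

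**Figure D2:**
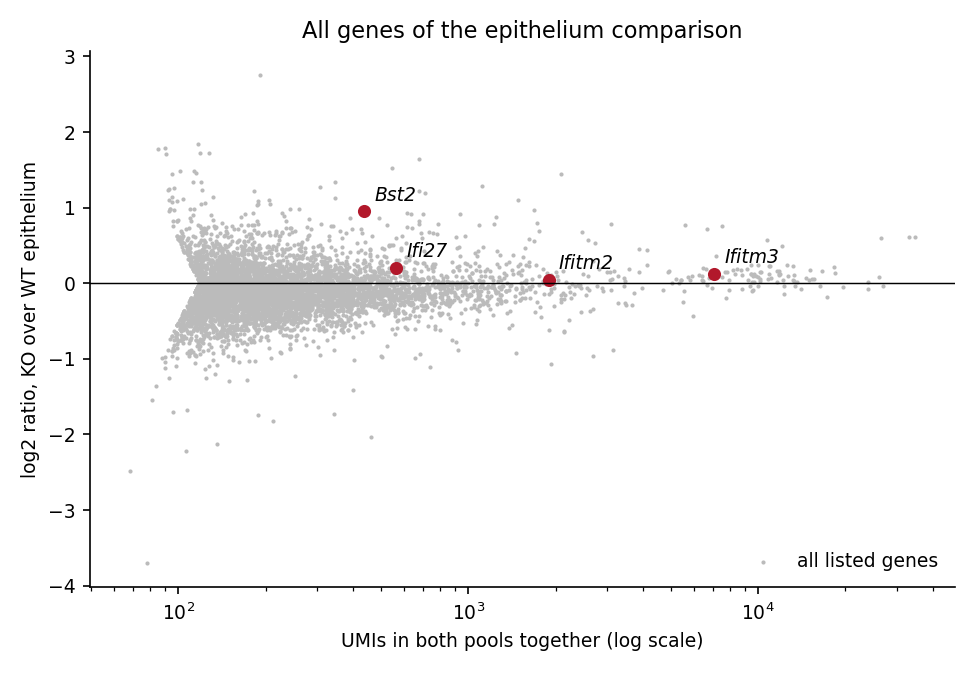
Log2 ratio of KO over WT epithelium (vertical axis) against the UMIs of both pools together (horizontal axis, log scale) for the 5811 listed genes, with the 4 interferon-induced genes in red. Bst2, at 0.95, lies near the upper edge of genes of like depth, while Ifi27 (0.21), Ifitm3 (0.13) and Ifitm2 (0.05) lie within the cloud.

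Markers of other cell types also differed between these pools, with 0 called in epithelium. Of 26 stroma markers, 22 were higher in KO epithelium, and their summed average was 243 in KO and 180 in WT. Of 7 listed macrophage and leukocyte markers, 5 were higher in KO, with a summed average of 23.8 in KO and 18.6 in WT. Jchain, a plasma cell gene, alone made up 12.96 of that sum in KO and 7.56 in WT. Without it the other listed markers together were not higher in KO, but without Cd14 as well the rest summed higher in KO. Cd14 was called higher in epithelium than in stroma in both genotypes, where it was listed through epithelium alone. The defining leukocyte genes Ptprc, Cd68, Adgre1, Csf1r and Cd3e are in none of the tables. At equal depth Jchain had 290 UMIs in KO epithelium against 169 in WT epithelium, and Lyz2, of macrophages, had 58.4 in KO against 84.2 in WT. The KO over WT ratio was 2.20 (1.499 to 3.29) for C1qb, 1.64 for Tyrobp, 1.52 for Fcer1g and 1.31 for Laptm5, all of myeloid or other leukocytes, and 0.592 for Cd14. C1qb and Fcer1g were listed through KO alone, and these 5 genes were named after their values were seen. Blood endothelium markers summed to 27.3 in KO and 26.9 in WT (6 of 9 higher). Sox17, which stood higher in epithelium than in stroma, made up 9.63 of that sum in KO and 11.67 in WT. Without Sox17 the rest of that list summed higher in KO. Smooth muscle markers summed to 36.5 in KO and 54.1 in WT (2 of 14 higher, with 4 listed through WT alone and 1 through KO alone). Epithelium markers summed to 241 in KO and 274 in WT (6 of 26 higher). The part of these cell types in the Bst2 ratio was not tested.

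In stroma the same question gave 0 called members, where 1.51% of 1191 genes were called. The deposited averages were 9.01 in KO stroma and 6.68 in WT stroma for Ifitm3, 4.24 and 4.58 for Ifitm2, 1.496 and 1.346 for Ifi27, and 1.11 and 1.16 for Bst2. Ifitm3 had the largest ratio, 1.35 (1.22 to 1.49), and 54 of the 855 genes with an average above 1 in both groups had a higher one. Its interval stood above 1, as it did for 20.99% of all genes. The ratio was 1.11 (0.888 to 1.40) for Ifi27, 0.959 (0.747 to 1.24) for Bst2 and 0.926 (0.818 to 1.05) for Ifitm2. The authors' deposited table gives all 4 an adjusted p of 1.

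Epithelium markers also stood higher in KO stroma. All 8 listed there did, 5 of them listed through their KO average alone, with a summed average of 14.7 in KO stroma and 6.49 in WT stroma. Over the 17 markers with a value in all 4 pools, the summed level at equal depth reached 1588 UMIs in KO stroma against 725 in WT stroma. Ifitm3 is itself high in epithelium, and the part of epithelial RNA in its stromal ratio was not tested. Leukocyte markers were lower in KO stroma, with a summed average of 7.77 in KO and 13.8 in WT over the 2 listed genes, Jchain and Lyz2. Smooth muscle markers summed to 16.8 in KO stroma and 31.5 in WT stroma, with 12 of 12 lower in KO. Of these, 5 were called, where 1.51% of all genes were. Listed through WT alone were 5 of the 12, which therefore had to be lower in KO, and the 7 above 1 in both groups were also all lower. The part of these shifts in the members' ratios was not tested.

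The compartment comparison in KO asked which members separate epithelium from stroma there. Ifitm3 was called, 1 of 4 members, where 9.88% of 2744 genes were called and 5.43% were called higher in epithelium. Its deposited average was 31.2 in KO epithelium and 17.2 in KO stroma, a ratio of 1.81 (1.71 to 1.92), and its adjusted p is 0.0105 in the authors' deposited table. Bst2 (2.42 in KO epithelium and 2.12 in KO stroma) had a ratio of 1.14 (0.9498 to 1.38), Ifitm2 (8.18 and 8.10) of 1.01 (0.916 to 1.11), and Ifi27 (2.56 and 2.86) of 0.896 (0.757 to 1.06). The intervals of these 3 genes all include 1.

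In WT the same comparison called 2 of 4 members, where 28.8% of 1769 genes were called, made up of 13.1% higher and 15.7% lower in epithelium. Ifitm3 was higher in epithelium, with a deposited average of 18.2 in WT epithelium and 8.12 in WT stroma, a ratio of 2.24 (2.05 to 2.45), for which the authors' deposited table gives an adjusted p of 0.000112. Bst2 was lower in epithelium, with 0.796 in WT epithelium and 1.41 in WT stroma, a ratio of 0.566 (0.434 to 0.740), at an adjusted p of 0.0326 by the authors' deposited table. Bst2 entered that table through its stroma average alone, so a lower level in epithelium was a condition of its listing there. Ifitm2 (5.04 and 5.56) had a ratio of 0.905 (0.803 to 1.02) and Ifi27 (1.41 and 1.63) of 0.863 (0.689 to 1.09), both uncalled. At a threshold of 0.01 the calls of Bst2 in WT and of Ifitm3 in KO were lost.

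**Figure D3:**
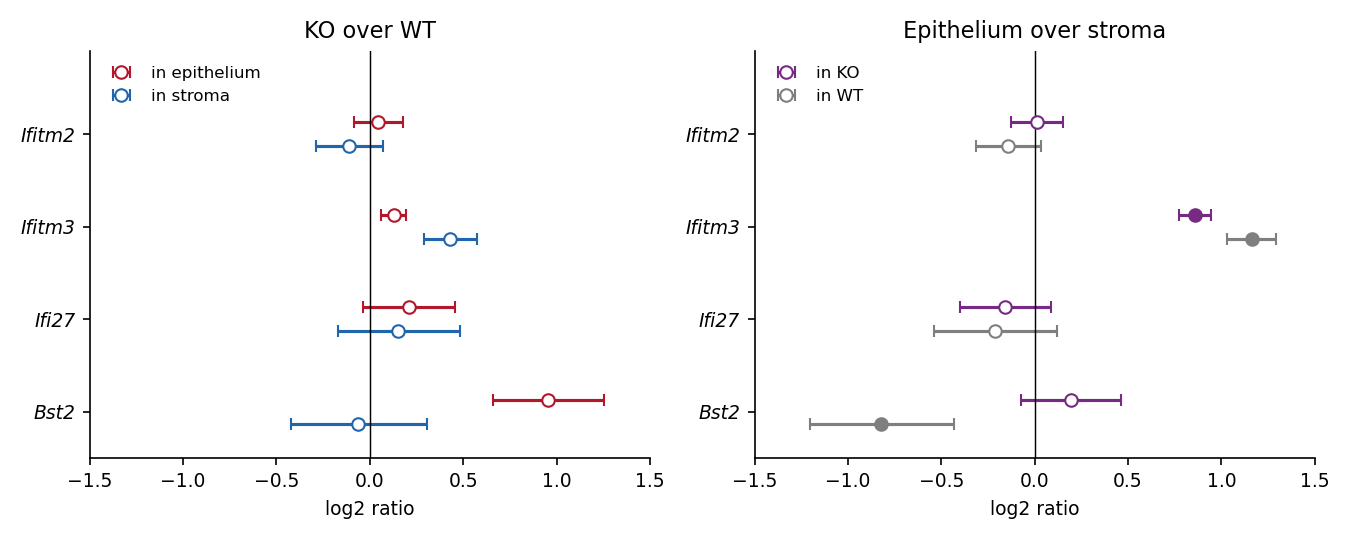
Log2 ratio of KO over WT (left panel) and of epithelium over stroma (right panel) for each listed gene, with 95% counting intervals. Filled points have an adjusted p under 0.05 in the authors' deposited tables: Ifitm3 in both genotypes and Bst2 in WT, all in the right panel. In WT, Bst2 was listed through its stroma average alone, so it had to be lower in epithelium.

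The KO over WT ratio of Bst2 differed between compartments by more than counting error. Its log2 ratio was 0.95 in epithelium and -0.06 in stroma, a difference of 1.01 (95% counting interval 0.56 to 1.47, normal approximation on the log scale). Read along the other axis, the same 4 values give a log2 ratio of epithelium over stroma of 0.19 in KO and -0.82 in WT. For Ifitm3 the difference was -0.30 (-0.46 to -0.15), from 0.13 in epithelium and 0.43 in stroma. It was 0.16 (-0.06 to 0.38) for Ifitm2 and 0.06 (-0.34 to 0.45) for Ifi27, where both intervals include 0. None of these differences could be tested between animals, and the share of all genes with such a difference was not counted. For the KO over WT ratio itself, counting intervals often excluded 1. In stroma they stood above 1 for 20.99% of genes and below 1 for 25.19%, and in epithelium for 7.62% and 15.49%.

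Relatives beside the members on the same chromosomes gave a further view. Ifitm1, which lies between Ifitm2 and Ifitm3 on chromosome 7 and encodes a related membrane protein, had 3437 and 2968 UMIs in KO and WT epithelium, and 1445 and 618 in KO and WT stroma. Its ratio of epithelium over stroma was 1.74 (1.63 to 1.85) in KO and 1.89 (1.73 to 2.06) in WT, with adjusted p-values of 0.0232 and 0.00312 in the authors' deposited tables, so that it was called with Ifitm3 and Ifitm2 was not. Ifi27l2a, next to Ifi27 on chromosome 12, had 122 and 72 UMIs in KO and WT epithelium, and 171 and 110 in KO and WT stroma. It was called lower in epithelium in WT, at a ratio of 0.257 (0.189 to 0.350; adjusted p 5.77e-08, authors' deposited table), and at 0.521 (0.410 to 0.661) in KO it was uncalled (adjusted p 0.0668, authors' deposited table). It entered both of those tables through its stroma average alone, with 0.406 in WT epithelium and 1.58 in WT stroma, so a lower level in epithelium was a condition of its listing. The difference of its KO over WT log2 ratio between compartments was 1.02 (0.47 to 1.56), from 0.64 in epithelium and -0.37 in stroma. For Ifitm1 that difference was -0.12 (-0.27 to 0.03), from 0.10 in epithelium and 0.22 in stroma. It was 0.04 (-0.21 to 0.29) for Ly6e, the other interferon-induced gene outside the members for which it was computed.

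The wider interferon response was followed in a list of 77 other interferon-induced effector genes. In the epithelium comparison 32 of them were listed and 0 were called. Of the 32, 22 were higher in KO and the median log2 ratio was 0.14, against -0.10 over all genes. Because 6 of the 32 were listed through KO alone and 3 through WT alone, the 23 with an average above 1 in both groups were also counted. Of those, 16 were higher in KO (35.6% of all such genes were) and their median was 0.10, against -0.09 over all such genes. These are values of single pools, so no test between animals could be made.

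The largest ratios in that list among genes above 1 in both groups were those of Ifi27l2a, at 1.56 (1.16 to 2.12; 122 UMIs in KO epithelium and 72 in WT epithelium), Psmb8, a catalytic subunit of the immunoproteasome, at 1.43 (1.11 to 1.85; 161 and 104), and Ly6a, a surface protein also known as Sca-1, at 1.33 (1.05 to 1.70; 172 and 119). The authors' deposited table gives these 3 genes an adjusted p of 1. Irgm1, an interferon-inducible GTPase, and Rtp4 had larger ratios, 2.21 (1.40 to 3.57; 67 UMIs in KO and 28 in WT) and 2.12 (1.36 to 3.38; 69 and 30). Both were named after their values were seen and were listed through KO alone. Ly6e, a surface protein that hinders the entry of coronaviruses, stood at 0.986 (0.897 to 1.08; 907 and 849).

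**Figure D4:**
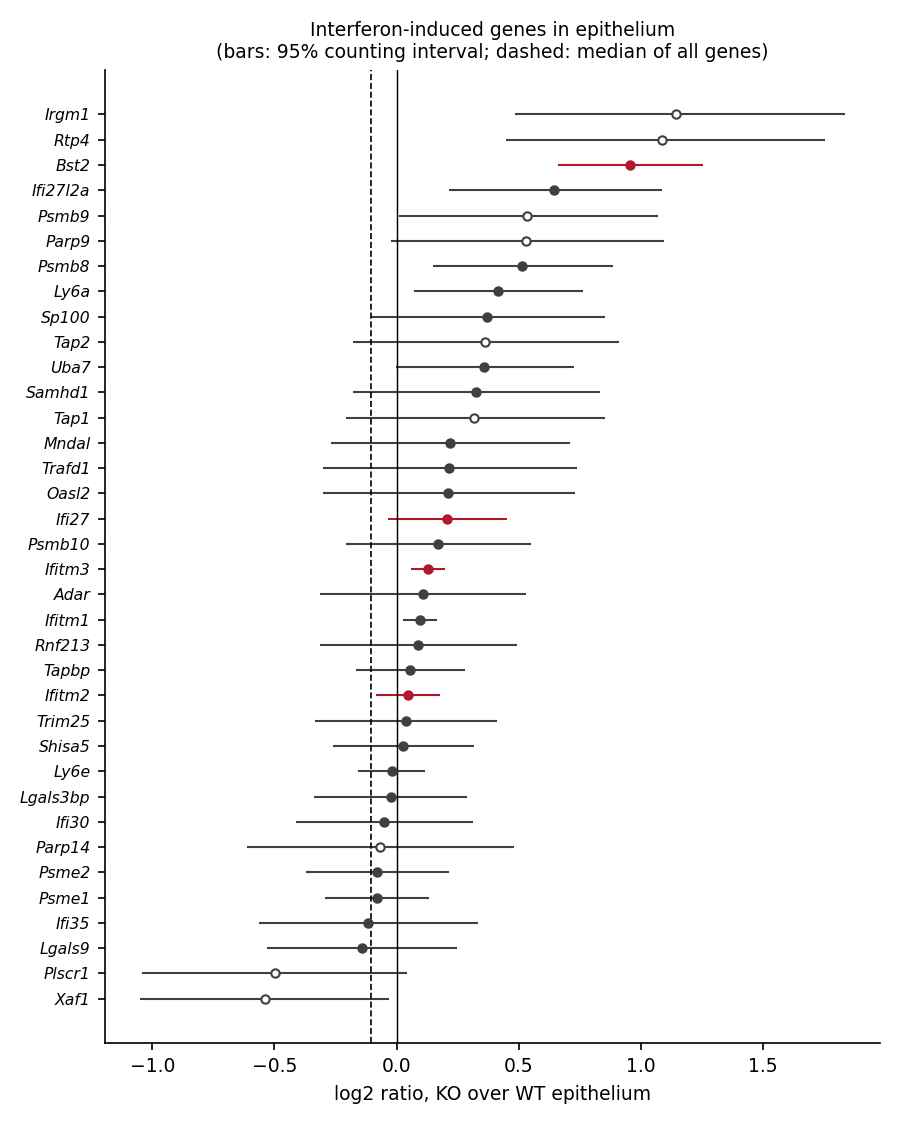
Log2 ratio of KO over WT epithelium with 95% counting intervals for the 4 members (red) and 32 other listed interferon-induced genes (grey), sorted from high to low. Open points had an average above 1 in 1 of the groups only. The dashed line marks the median of all genes, -0.10, and Bst2 is the highest of the filled points.

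In stroma 7 effector genes were listed and 0 were called, 4 of them were higher in KO, and the median log2 ratio was 0.01 against -0.05 over all genes. Of the 5 above 1 in both groups, the ratio was 1.16 (1.06 to 1.28) for Ifitm1, 1.04 for Shisa5, 1.01 for the proteasome activator gene Psme1, 0.956 for Ly6e and 0.773 (0.605 to 0.991) for Ifi27l2a. Higher in KO stroma were 45.7% of all genes. Between compartments, Ifitm1 was the 1 called gene of 17 effectors listed in KO, where 9.88% of all genes were called. Of 8 listed in WT, where 28.8% of all genes were called, Ifitm1 was called higher in epithelium and 2 were called lower, Ifi27l2a and Ly6a. Both of these were listed through stroma alone, so their calls say nothing about the list. The ratio of Ly6a was 0.509 (0.384 to 0.675), with adjusted p 0.0202 by the authors' deposited table.

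The interferon receptors, kinases and transcription factors numbered 15 listed of 32 named in the epithelium comparison, with 0 called, 7 higher in KO and -0.12 as their median log2 ratio. Among those above 1 in both groups were Jak2, the kinase of the interferon gamma receptor among others, at 0.730 (0.620 to 0.859; 269 UMIs in KO and 340 in WT), and Ifnar2, a chain of the type I interferon receptor, at 1.36 (0.987 to 1.87; 100 and 68). Irf9, a factor that binds the ISRE and was named after its values were seen, stood at 1.04 (0.745 to 1.46; 78 UMIs in KO and 69 in WT). In stroma 3 were listed, all lower in KO, 0 called and all listed through WT alone.

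Between compartments Jak2 was called higher in epithelium in WT at 2.68 (1.98 to 3.68; adjusted p 0.000228, authors' deposited table) and had 1.60 (1.29 to 1.99; adjusted p 0.181, authors' deposited table) in KO. Jak1, the kinase of both interferon receptor types, was called lower in epithelium in WT, at 0.575 (0.444 to 0.747; adjusted p 0.0482, authors' deposited table). In that table Jak2 was listed through epithelium alone (1.92 in WT epithelium and 0.717 in WT stroma) and Jak1 through stroma alone (0.841 and 1.46), so each had to differ in that direction. The interferon genes Ifne, Ifnb1 and Ifng are in none of the tables used here, nor are the effectors Ifit1, Mx1, Rsad2 and Oas1a.

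The genes most like each member over the 4 pools were sought among 1755 genes with a value in every pool, as the smallest root mean square difference of log2 levels after centring. With 4 pools per gene such likeness is a description. The nearest to Bst2 was B2m, the light chain of MHC class I, at 0.12, followed by mt-Co2, Snhg18 and Pdgfrb at 0.15 to 0.16. B2m had 1569 and 906 UMIs in KO and WT epithelium, and 1189 and 632 in KO and WT stroma. It was called lower in epithelium in WT, at a ratio of 0.564 (0.509 to 0.625; adjusted p 0.00206, authors' deposited table). Because B2m was picked for pool values like those of Bst2, a like ratio followed from the search and adds no evidence. Bst2 itself was listed in that WT comparison through its stroma average alone.

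For the other members the nearest genes were closer. Ifitm3 was nearest to Gm49980, Scd2, Irs1 and Id2, at 0.03 to 0.07. Ifitm2 was nearest to Spcs1, Tmem256, Ech1 and Rtn4, at 0.01 to 0.02, and Ifi27 to Gnas, Rpl19, Wnt5a and Use1, at 0.01 to 0.02.

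Of 10 listed MHC class I and II genes, many of which interferon also induces, 9 were higher in KO epithelium than in WT epithelium, as 35.2% of all genes were, and 0 were called. Their summed average was 99.86 in KO and 70.19 in WT, and the median of their log2 ratios was 0.58. In stroma 6 of 8 were higher in KO, as 45.7% of all genes were, with a median of 0.22 and 0 called.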

How the data were processed

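The 8 uteri were cut into 10 µm cryosections on Visium slides, per the labels' protocols, and the submitters' processing notes name GRCm38 as the build. Not given in the sources used here are the aligner, how spots were named and which test was run. Per the file headers, the authors deposited an average signal per group, a log2 fold change and an adjusted p-value (FDR). Since the authors pooled the animals, no value per animal stands behind a comparison here. The tables used here hold no unadjusted p.

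The deposited signal has its own scale in each table. UMI sums were recovered by solving the size factor sums that turn the deposited averages into the deposited log2 fold changes. The sums came out whole, within 0.01, for 100% of genes in every table, and 0 genes differed between tables. This step was checked on simulated Poisson counts, turned into log2 values by the same formula. The check therefore covers the solving step, and neither the formula nor any spread between spots or animals. Ratios are of deposited averages, without a pseudocount; their intervals are Clopper-Pearson intervals of the sums. No gene is listed whose averages are both 1 or lower, so low genes pass more readily when high in 1 group. Members and lists were chosen with earlier results of these data known. Named were the members, called list genes, in each genotype table up to 6 list genes with the largest log2 ratio and an average above 1 in both groups, the 4 nearest genes per member and the top 2 markers per list; some genes under this rule are not reported here. Of 5828 gene IDs, 5826 are in GENCODE M21. Python 3.11.15, NumPy 2.4.6, SciPy 1.17.1, pandas 2.3.3 and matplotlib 3.10.9 were used.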

Additional observations from a re-analysis of the deposited data

Results flagged for a closer look

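Bst2 was higher in KO than in WT in epithelium and nearly level between KO and WT in stroma, so its genotype ratios differed between the compartments. The log2 ratio of KO over WT was 0.95 in epithelium and -0.06 in stroma, a difference of 1.01 with a 95% counting interval of 0.56 to 1.47. Each group is 1 pool, and the difference was not tested between animals. The share of all genes with such a difference was not counted. The ratio in stroma has a counting interval that includes 1, so its direction there is not set.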

How the results depend on the processing

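At an adjusted p threshold of 0.01 the called members numbered 0 between compartments in KO and 1 in WT, where Ifitm3 remained, and with a minimum absolute log2 fold of 1 they also numbered 0 in KO and 1 in WT. Without the lowest 25% of genes by level the counts were 0 and 0 between genotypes, 1 in KO and 2 in WT, as with all genes. The deposited log2 values, which carry a pseudocount, moved a member's log2 ratio by at most 0.0103. Of 32 member values under that scale or centred on the median gene, 31 stayed within their counting interval, the exception being Ifitm3 between genotypes in epithelium at 0.23 once centred. The median log2 ratio of the effector genes between genotypes in epithelium was 0.10 over those above 1 in both groups and 0.24 centred, against 0.14 as reported, and between compartments in KO it was -0.08 as reported and 0.01 over those above 1 in both groups. No paired analysis was possible because each deposited value covers all animals of its genotype, and for that reason no animal could be left out in turn. Among the members, low counts limit Bst2 most, at 98 to 296 UMIs per pool.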

Other observations

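Genes that prepare peptides for MHC class I were grouped after their values were seen, so they are given as values only. Of the immunoproteasome subunits, Psmb8 had a ratio of KO over WT epithelium of 1.43 (1.11 to 1.85), Psmb9 of 1.45 (1.01 to 2.10; 80 UMIs in KO and 51 in WT) and Psmb10 of 1.13 (0.867 to 1.46; 133 and 109). The peptide transporter genes Tap1 and Tap2 had 1.25 (0.865 to 1.81) and 1.28 (0.884 to 1.88). The proteasome activator genes Psme1 and Psme2 had 0.946 (0.816 to 1.10) and 0.947 (0.772 to 1.16), and Tapbp, which loads peptides onto class I molecules, had 1.04 (0.891 to 1.21). The authors' deposited table gives all 8 an adjusted p of 1, and Psmb9, Tap1 and Tap2 were listed through KO alone.

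In stroma Tapbp had 260 UMIs in KO and 81 in WT, a ratio of 1.60 (1.24 to 2.07), and the authors' deposited table gives it an adjusted p of 0.764. It was listed through KO alone there.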
